A study of Mus musculus with 7 samples.

Results

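The transcripts of 31 genes that make, take up, store or export cholesterol were followed in ACLY knockout and wild type CD8 T cells of the mouse. ATP citrate lyase (ACLY) splits citrate in the cytosol and supplies the acetyl-CoA from which the sterol pathway starts. The genes were chosen by name, as enzymes of sterol synthesis, targets and regulators of SREBP2, proteins of cholesterol trafficking, and the LXR receptors with their targets. All 31 were found among the 16156 genes measured. They are treated here as 20 genes of sterol synthesis and other SREBP2 targets, 3 LXR targets, and 8 genes of transport, esterification and regulation.

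The 7 libraries were RNA sequencing of total RNA from CD8 T cells of the OT-I line, whose transgenic receptor recognises an ovalbumin peptide. There were 3 libraries of ACLY knockout cells (KO) and 4 of wild type cells (WT). In both genotypes the cells carried a congenic mark, were given to C57Bl/6 hosts 1 day before these were infected with LmOVA, an ovalbumin-expressing strain of Listeria monocytogenes, and were recovered 6 days after infection. How the Acly gene was deleted, and whether replicate libraries stand for different animals, is not given in the sources used here, and p-values therefore measure the spread between these libraries, which may be technical.

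Cells sense cholesterol through a pair of opposed transcription programmes. When membrane sterol is scarce, SCAP carries SREBP2 out of the endoplasmic reticulum for activation, and SREBP2 turns on the enzymes of the mevalonate and sterol pathway. INSIG proteins hold SCAP back when sterol is plentiful. When oxysterols accumulate, the nuclear receptors LXR alpha and LXR beta turn on the efflux pumps ABCA1 and ABCG1 and the ubiquitin ligase MYLIP, which removes lipoprotein receptors from the cell surface. Dividing T cells need sterol for new membrane, and LXR activity is known to restrain their expansion.

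Several libraries stood apart before any of these genes was considered. Library totals were 37473484 to 39692359 counts in KO and 45288353 to 75586011 in WT. Acly was at 262, 62.0 and 209 CPM (read counts scaled to library size with TMM) in KO and at 393, 339, 414 and 276 CPM in WT, each list in the order of replicates 1 to 3 (KO) or 1 to 4 (WT) as throughout, so the groups did not overlap but KO replicate 1 lay close to WT replicate 4 (KO mean 0.499 of the WT mean; edgeR adjusted p = 0.278). The defining CD8 T cell transcripts were present in every library, with Cd8a at 225 CPM in KO replicate 1 and 531 to 852 CPM in the others. Cd3d, Cd3e and Cd3g, of the receptor complex common to T cells, lay lower in every KO library than in any WT library, with Cd3d at 288, 570 and 609 CPM in KO and 661 to 800.4 CPM in WT. The V beta segments of the OT-I receptor family (Trbv12-1 and Trbv12-2) took 47.3%, 23.7% and 62.2% of the beta chain V counts in KO replicates 1 to 3, against 84.6% in WT replicate 4 and 99.0% to 99.2% in the other WT libraries. Macrophage and monocyte markers (10 of 10 measured) summed to 1198, 68.6 and 954 CPM in KO replicates 1 to 3 and to 18.2 to 30.8 CPM in WT. Among these, Csf1r was at 150.2, 4.12 and 239 CPM in KO and 1.35 to 4.17 CPM in WT, and Cd14 and Mertk were at 0 in WT replicate 4. B cell markers (8 of 8) summed to 8572, 1101 and 625 CPM in KO and 244 to 676 CPM in WT. Neutrophil (3 of 5), red cell (4 of 5), dendritic cell (2 of 5) and CD4 T cell (3 of 4) markers summed to 8.96 to 335, 85.5 to 16070, 36.2 to 258 and 9.22 to 186 CPM in KO, and to 0.0828 to 0.322, 0.461 to 155, 152 to 403 and 9.29 to 34.1 CPM in WT. Almost all of the dendritic cell sum was Itgax, and the other marker measured, Zbtb46, was at 20.4, 1.86 and 4.38 CPM in KO and 0.966 to 2.46 CPM in WT. The KO minus WT difference of that list was -1.49 as log2 of the sum and -0.09 as a mean of log2 values. Cell cycle transcripts (14 of 14) summed to 3700.1 CPM in WT replicate 4, 402 to 429.6 CPM in WT replicates 1 to 3, and 978, 438 and 318 CPM in KO replicates 1 to 3. In such bulk libraries, fewer cells of a type and less RNA per cell cannot be told apart.

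No member passed the threshold between genotypes, and the 2 largest differences were those of the efflux pump gene Abca1 and the LXR receptor gene Nr1h3. Abca1 and Nr1h3 lay higher in every KO library than in any WT library, and Acat2 lay lower. edgeR's quasi-likelihood test called 0 of 31 members at a Benjamini-Hochberg adjusted p under 0.05, and 0.0% of all genes. At an unadjusted p under 0.05 it counted 2 members higher (Abca1 and Nr1h3) and 1 lower (Acat2), against 11.0% of all genes higher and 7.89% lower. No overlap between groups, with KO higher, was seen for the same 2 members and, with KO lower, for the same 1, against 9.46% and 9.03% of all genes. DESeq2 called 2 members higher and 1 lower, again these 3, where it called 6.39% of all genes higher and 3.22% lower. limma voom with quality weights called Abca1 and Nr1h3 higher and no member lower, against 5.32% and 1.68% of all genes. These shares of the members are near or below those of all genes.

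**Figure D1:**
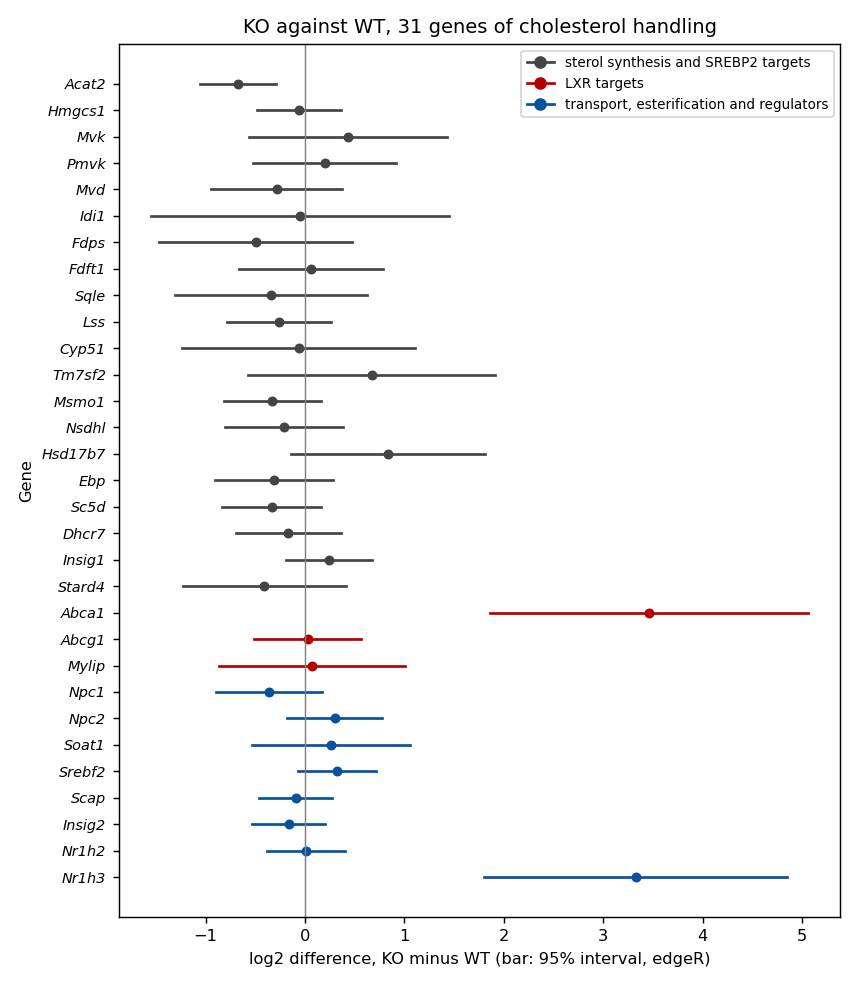
Log2 difference between KO and WT for each of the 31 genes (x axis, log2 scale), with the edgeR estimate as a point and its 95% interval as a bar, coloured by the role of the gene. The intervals of Abca1 (1.86 to 5.06), Nr1h3 (1.80 to 4.85) and Acat2 (-1.06 to -0.29) do not cross 0, and those of the other 28 do.

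The efflux genes differed in pattern. ABCA1 is the pump that loads cholesterol and phospholipid onto lipid-poor apolipoproteins, and it is a direct LXR target. Abca1 (minus strand of chromosome 4, 53030787 to 53159895 in mm10) was at 66.2, 18.5 and 32.5 CPM in KO and at 1.90, 2.65, 1.71 and 7.95 CPM in WT. Every KO library was high and 3 of 4 WT libraries were low, with WT replicate 4 between them. The mean was 39.1 ± 24.5 CPM in KO (SD, n = 3) and, in WT, 3.55 ± 2.96 CPM (SD, n = 4), 11.0-fold apart, from 796 to 2479 counts in KO and 89 to 469 in WT. The log2 difference was 3.46 ± 0.69 (SE; edgeR adjusted p = 0.0717).

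Whether Abca1 was called depended on the tool and the libraries. Without WT replicate 4 the log2 difference of Abca1 was 4.22 (edgeR adjusted p = 0.0411), and without both WT replicate 4 and KO replicate 1 it was 3.63 (edgeR adjusted p = 0.0141). Over 15 alternatives the adjusted p ran from 2.8e-06 in DESeq2 to 0.24 in edgeR without WT replicate 1.

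The start region of Abca1 is shown because it was the only member window with an LXR half-site repeat. The sequence is the RefSeq window of 300 bases on the minus strand (GRCm38.p6, chr4:53159846-53160145), running from 250 bases before the transcript start to 50 after it. The capitals mark 2 copies of the half-site GGTNA in the same direction with 5 bases between them, read here on the opposite strand and beginning at base -67 relative to the start.

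Abca1: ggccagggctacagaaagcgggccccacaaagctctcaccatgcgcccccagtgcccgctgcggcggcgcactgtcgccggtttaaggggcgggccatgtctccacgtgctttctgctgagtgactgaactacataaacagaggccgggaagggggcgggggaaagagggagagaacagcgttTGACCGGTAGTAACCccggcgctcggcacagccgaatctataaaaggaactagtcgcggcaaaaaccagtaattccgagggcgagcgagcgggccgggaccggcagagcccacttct

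The repeat was searched on both strands. It was found in 0.818% of all genes with such a window and in 1 of the 25 members that have one. A match describes the letters only and says nothing of binding.

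The other LXR targets gave no such difference. ABCG1 passes cholesterol to mature lipoprotein particles. Abcg1 was at 71.5, 64.1 and 61.3 CPM in KO and at 69.8, 62.6, 83.8 and 41.2 CPM in WT. The groups overlapped fully, with the lowest value in WT replicate 4 (log2 difference 0.03, 95% interval -0.51 to 0.57; edgeR adjusted p = 0.961). Mylip, the ubiquitin ligase that removes lipoprotein receptors, was at 119, 91.9 and 121 CPM in KO and at 125, 128, 132 and 37.6 CPM in WT. WT replicate 4 was again the low library, and the log2 difference was 0.07 ± 0.40 (SE; edgeR adjusted p = 0.948). Both signs turned without WT replicate 4, to -0.13 for Abcg1 and -0.21 for Mylip. Within a library, the ratio of Abca1 to Abcg1 CPM was 0.926, 0.289 and 0.531 in KO replicates 1 to 3, against 0.0273, 0.0423, 0.0204 and 0.193 in WT. The ratio was higher in every KO library than in any WT library.

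Of the 2 LXR receptor genes, one was higher in every KO library, without a call in edgeR, and the other overlapped between the groups. Nr1h3 encodes LXR alpha, the form typical of macrophages, liver and fat. It was at 20.5, 2.93 and 21.1 CPM in KO and at 1.52, 1.17, 2.04 and 1.20 CPM in WT, from 52 to 110 counts in WT. KO replicates 1 and 3 were high, and KO replicate 2 lay just above the highest WT library. The mean was 14.9 ± 10.3 CPM in KO (SD, n = 3) and, in WT, 1.48 ± 0.402 CPM (SD, n = 4), 10-fold apart, with a log2 difference of 3.32 ± 0.65 (SE; edgeR adjusted p = 0.0712). Without KO replicate 2 it was 3.81 (edgeR adjusted p = 0.0149), and over 15 alternatives the adjusted p ran from 8.58e-06 in DESeq2 to 0.242 in edgeR without WT replicate 1. Nr1h2, which encodes the widely expressed LXR beta, was at 168, 173 and 201 CPM in KO and at 185, 189, 209 and 134 CPM in WT (log2 difference 0.01, 95% interval -0.38 to 0.41; edgeR adjusted p = 0.981). Per kb of exon, with all annotated exons of a gene counted together, Nr1h2 stood at 53.4 ± 9.45 CPM per kb in WT (SD, n = 4). Nr1h3 stood at 0.589 ± 0.160 CPM per kb. By this measure they were the highest and the 2nd lowest of the 31 genes.

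**Figure D2:**
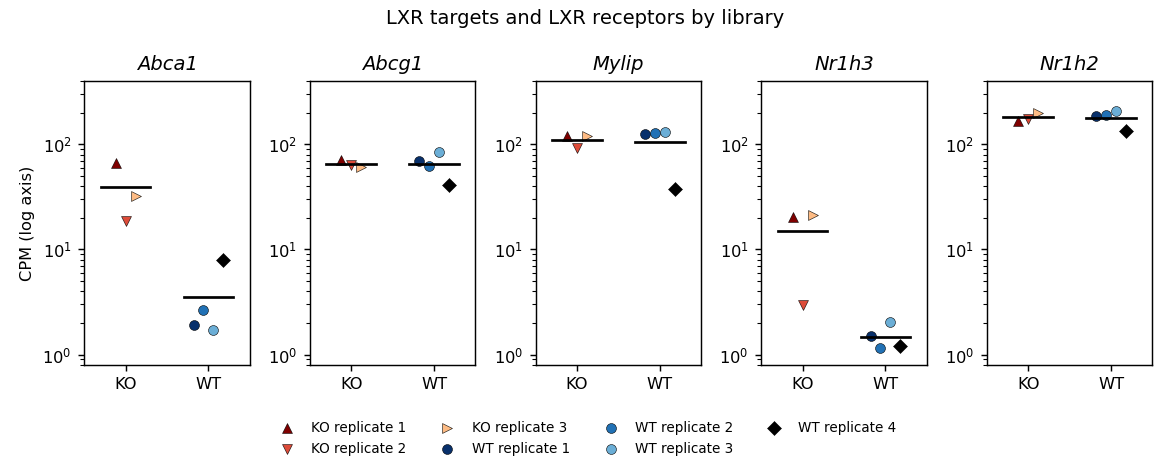
CPM (log axis) of the LXR targets Abca1, Abcg1 and Mylip and of the LXR receptor genes Nr1h3 and Nr1h2 in each library, with KO at the left and WT at the right of each panel and a line at the group mean. Abca1 and Nr1h3 lie higher in every KO library than in any WT library, Abca1 of WT replicate 4 is at 7.95 CPM, and Mylip of WT replicate 4 is at 37.6 CPM.

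Macrophage transcripts moved with both genes, to different degrees. Their summed level was 1198 and 954 CPM in KO replicates 1 and 3, where Nr1h3 was at 20.5 and 21.1 CPM, and 68.6 CPM in KO replicate 2, where Nr1h3 was at 2.93 CPM. Abca1 in KO replicate 2 was at 18.5 CPM, above every WT library. In WT replicate 4, where Abca1 was at 7.95 CPM against 1.71 to 2.65 CPM in the other WT libraries, macrophage markers summed to 26.9 CPM, within the 18.2 to 30.8 CPM of the others. For the differences between KO and WT, and for WT replicate 4, the part of macrophage, B cell or other added cells was not tested.

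**Figure D3:**
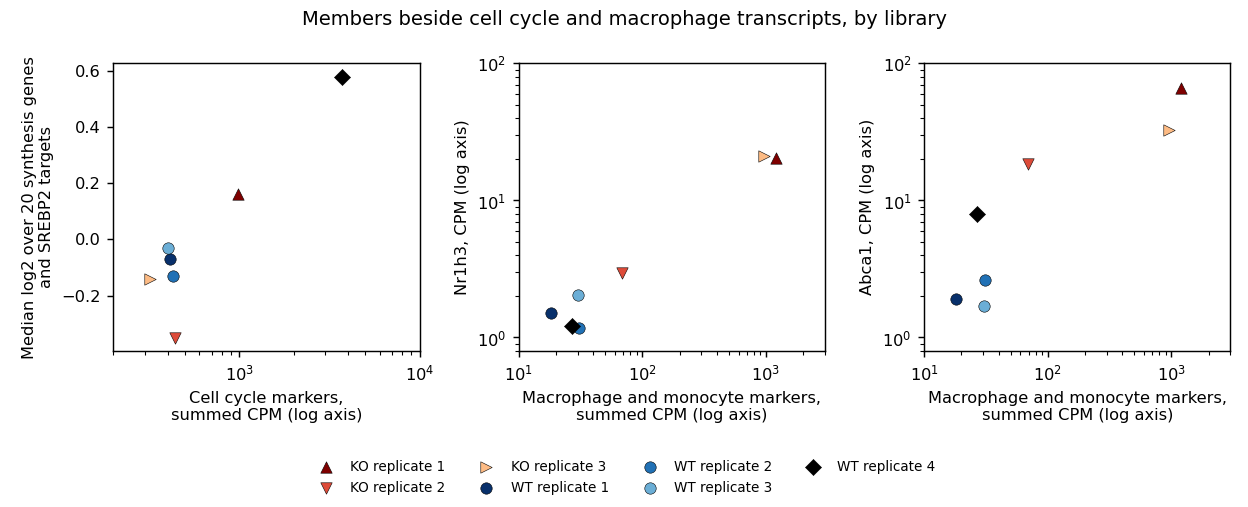
Each point is a library. The left panel sets the median log2 ratio over the 20 synthesis genes and SREBP2 targets (each gene relative to its geometric mean over the 7 libraries) against summed cell cycle CPM on a log axis, and the middle and right panels set Nr1h3 and Abca1 CPM against summed macrophage and monocyte CPM, all on log axes. WT replicate 4 has the highest cell cycle sum (3700.1 CPM) and the highest median (0.58), and Abca1 differs between KO replicate 2 and the WT libraries more than Nr1h3 does.

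Other genes of sterol handling were taken from a list that excludes the members. In the list of other sterol genes, 27 of 31 were measured, and edgeR called 0. An unadjusted p under 0.05 was reached by 5 higher and 1 lower. With DESeq2 4 were called higher and 0 lower, and with limma voom 3 higher and 0 lower. The corresponding shares of all genes were 11.0% and 7.89% at an unadjusted p under 0.05, 6.39% and 3.22% in DESeq2, and 5.32% and 1.68% in limma voom, and nothing particular to these 27 genes is read from their counts. Cyp27a1, the mitochondrial sterol hydroxylase that makes an oxysterol ligand of LXR, was at 40.3, 6.63 and 14.1 CPM in KO. Its WT counts were 4, 16, 3 and 0. Lrp1, a scavenging lipoprotein receptor, was at 21.9, 0.652 and 22.8 CPM in KO and 0.0339 to 0.442 CPM in WT. Lipa, the lysosomal acid lipase that frees cholesterol from lipoprotein esters, had little spread, with 98.3, 102 and 103 CPM in KO and 73.0, 62.5, 78.0 and 66.0 CPM in WT. Every KO library lay above every WT library (log2 difference 0.53 ± 0.12, SE; edgeR adjusted p = 0.0844), in KO replicate 2 as in the others.

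In the list of other LXR targets, 8 of 8 were measured. edgeR called 0, with 3 higher and 1 lower at an unadjusted p under 0.05. The calls of DESeq2 were 2 higher and 1 lower, and those of limma voom 1 higher and 1 lower. The list holds too few genes to be set against the shares of all genes given above. Apoe, the apolipoprotein that macrophages secrete with cholesterol, was at 379, 44.6 and 262 CPM in KO and 6.43 to 12.5 CPM in WT. Like the macrophage sum, Apoe, Cyp27a1 and Lrp1 were lowest in KO replicate 2 among the KO libraries, and the part of added cells in them was not tested. Lpcat3, which places polyunsaturated chains into phospholipids, was at 55.8, 58.6 and 63.0 CPM in KO and 45.8, 41.2, 41.0 and 43.8 CPM in WT, without overlap (log2 difference 0.46 ± 0.12, SE; edgeR adjusted p = 0.11). Smpdl3a, a secreted phosphodiesterase, went the other way, at 88.0, 91.8 and 96.7 CPM in KO and 179, 189, 138 and 109 CPM in WT. Srebf1, the lipogenic SREBP that LXR also induces, was at 123, 135 and 151 CPM in KO and 121 to 138 CPM in WT, with a log2 difference of 0.06 (95% interval -0.22 to 0.33; edgeR adjusted p = 0.847).

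The sterol synthesis genes varied between libraries of 1 genotype, and edgeR called none of them. Of these 18 enzymes and 2 other SREBP2 targets, 14 were below 0 and 6 above, with a median log2 difference of -0.19 beside 0.0 over all genes. Relative to each gene's geometric mean over the 7 libraries, the median of the 20 genes was 0.58 in WT replicate 4 on the log2 scale, 0.16 in KO replicate 1, -0.13 to -0.03 in WT replicates 1 to 3, -0.14 in KO replicate 3 and -0.35 in KO replicate 2. WT replicate 4 was the highest WT library for 18 of the 20, the exceptions being Msmo1 and Insig1. KO replicate 2 was the lowest KO library for 11 of the 20. The median difference was -0.03 without WT replicate 4 and -0.03 without KO replicate 2. WT replicate 4 and KO replicate 1 also held the most cell cycle transcripts (3700.1 and 978 CPM), and the part of dividing cells in these levels was not tested.

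**Figure D4:**
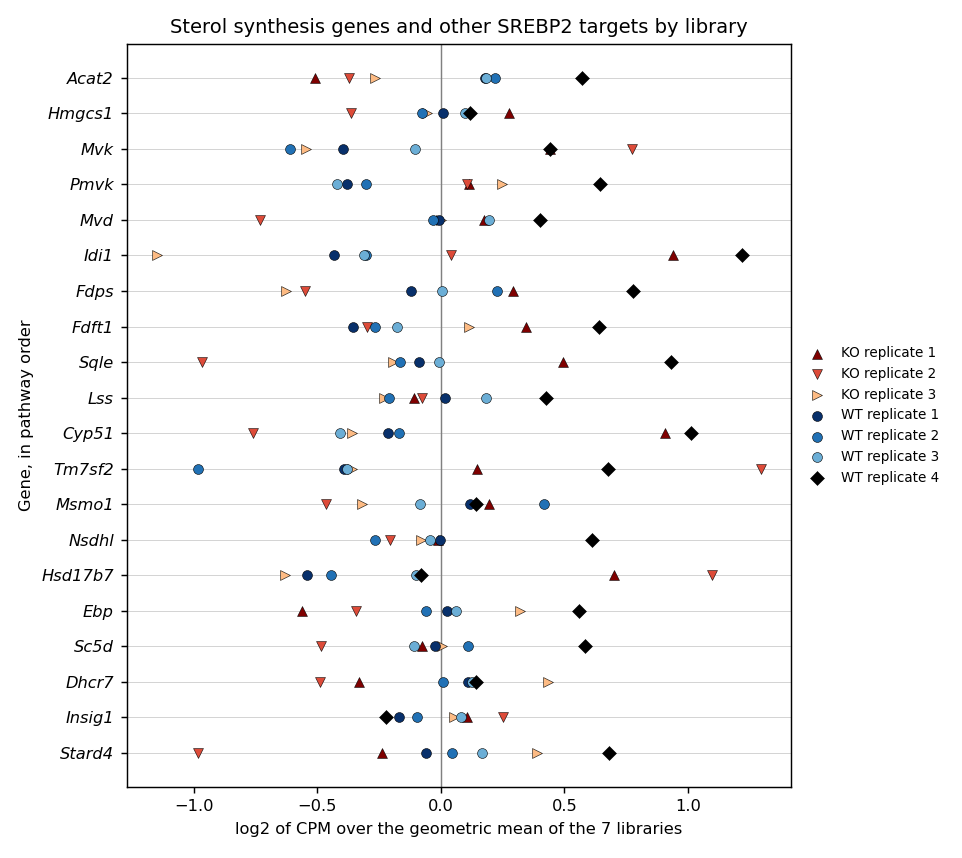
Level of each synthesis gene or SREBP2 target in each library, as log2 of CPM over the gene's geometric mean across the 7 libraries (x axis), with genes in pathway order from top to bottom. WT replicate 4 (black diamonds) is the highest WT library for 18 of 20 genes, and all 3 KO libraries lie below the WT libraries for Acat2.

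Among the mevalonate steps, the first enzyme was the only synthesis gene whose groups did not overlap. Of the 20 synthesis genes and SREBP2 targets, 1 thus lay lower in every KO library, against 9.03% of all genes. Nothing particular to these 20 genes is read from that. Acat2 is the cytosolic thiolase that joins a pair of acetyl-CoA molecules at the head of the pathway (minus strand of chromosome 17, 12942890 to 12960747). It was at 25.2, 27.7 and 29.8 CPM in KO and at 40.6, 41.7, 40.7 and 53.3 CPM in WT. Every KO library was low, and WT replicate 4 was the highest. The mean was 27.6 ± 2.31 CPM in KO (SD, n = 3) and, in WT, 44.1 ± 6.18 CPM (SD, n = 4), and the log2 difference was -0.68 ± 0.16 (SE; edgeR adjusted p = 0.0973), and -0.57 without WT replicate 4. Over 15 alternatives its adjusted p ran from 0.00749 in DESeq2 to 0.266 in edgeR without WT replicate 1. Of the distinct 50-base words in Acat2 transcripts, 39.1% also occur in transcripts of other genes, first of all its near copy Acat3 and Tcp1, so its count is uncertain. Cd3d, Cd3e and Cd3g, like Acat2, lay lower in every KO library (log2 differences -0.59, -0.46 and -0.57). Cd8a and Cd8b1 overlapped between the groups (-0.18 and -0.40). The part of added cells in the Acat2 difference was not tested.

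Hmgcs1 makes HMG-CoA, the next intermediate. It was at 43.4, 27.9 and 34.5 CPM in KO and at 36.0, 34.0, 38.4 and 38.9 CPM in WT. The WT libraries lay within the range of the KO libraries (log2 difference -0.06, 95% interval -0.49 to 0.36; edgeR adjusted p = 0.89). Its start region is shown because it was the only member window that held the sterol regulatory element searched for, the letters TCACNCCAC on either strand. The window is the RefSeq one on the plus strand (GRCm38.p6, chr13:119690101-119690400), and the capitals mark the match, which begins at base -137 relative to the start.

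Hmgcs1: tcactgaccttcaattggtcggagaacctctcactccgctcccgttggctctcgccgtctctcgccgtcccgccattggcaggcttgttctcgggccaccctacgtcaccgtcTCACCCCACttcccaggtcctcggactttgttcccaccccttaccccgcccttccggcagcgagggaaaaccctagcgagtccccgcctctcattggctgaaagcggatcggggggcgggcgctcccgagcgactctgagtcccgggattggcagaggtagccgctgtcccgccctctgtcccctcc

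This exact element was in 1.44% of all genes with a window and in 1 of 25 members. The CCAAT box, the site of NF-Y, a factor that works beside SREBP2, was far more common. It was present on either strand in 15 of the 16 synthesis genes and SREBP2 targets with a window, against 41.1% of all genes. None of its 4 matches in the Hmgcs1 window overlaps the sterol regulatory element.

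The next kinases and decarboxylase carried mevalonate to isopentenyl pyrophosphate without a called difference. Mvk, mevalonate kinase, was at 6.15, 7.73 and 3.10 CPM in KO and at 3.43, 2.96, 4.21 and 6.14 CPM in WT. Pmvk, phosphomevalonate kinase, was at 17.8, 17.7 and 19.5 CPM in KO and at 12.6, 13.3, 12.3 and 25.7 CPM in WT. The KO libraries of Pmvk lay above WT replicates 1 to 3 and below WT replicate 4. Mvd, the decarboxylase, was at 14.4, 7.66 and 12.7 CPM in KO and at 12.7, 12.5, 14.6 and 16.8 CPM in WT, with KO replicate 2 the low library. Idi1, the isomerase, was at 4.25, 2.28 and 0.998 CPM in KO and 1.64, 1.79, 1.79 and 5.15 CPM in WT. WT replicate 4 and KO replicate 1 were the high libraries. Fdps, which makes farnesyl pyrophosphate, was at 3.05, 1.70 and 1.61 CPM in KO and at 2.29, 2.92, 2.50 and 4.27 CPM in WT. Both rested on few reads, 39 to 304 counts for Idi1 and 63 to 252 for Fdps. They also share 25.3% and 26.2% of their 50-base words with transcripts of other genes, many of them unnamed models, so their counts are uncertain.

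The squalene steps commit carbon to sterols. Fdft1, squalene synthase, was at 22.5, 14.4 and 19.1 CPM in KO and at 13.8, 14.7, 15.6 and 27.6 CPM in WT. Of its exon bases 18.3% overlap those of Ctsb, a lysosomal protease gene on the opposite strand, so its level is uncertain. Sqle, squalene epoxidase, an oxygen-dependent control point of the pathway, was at 31.1, 11.3 and 19.3 CPM in KO and at 20.8, 19.7, 22.0 and 42.2 CPM in WT. WT replicate 4 was 2.03-fold above the mean of WT replicates 1 to 3, and KO replicate 1 was 2.03-fold above the mean of KO replicates 2 and 3. The log2 difference of Sqle was -0.35 with a 95% interval of -1.31 to 0.62 (edgeR adjusted p = 0.712). Lss, the cyclase that forms lanosterol, was at 14.1, 14.5 and 13.0 CPM in KO and 15.4, 13.2, 17.3 and 20.5 CPM in WT, with less spread than its neighbours.

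After lanosterol, 8 enzymes strip methyl groups and shift double bonds. Cyp51, the lanosterol demethylase, was at 43.1, 13.5 and 17.9 CPM in KO and at 19.8, 20.4, 17.3 and 46.4 CPM in WT. KO replicate 1 and WT replicate 4 stood at similar high levels, and the other 5 libraries lay between 13.5 and 20.4 CPM. The log2 difference of Cyp51 was -0.06 with a 95% interval of -1.24 to 1.11 (edgeR adjusted p = 0.961), and its sign turned to 0.37 without WT replicate 4. Msmo1, the sterol methyl oxidase, was at 43.6, 27.5 and 30.5 CPM in KO and 41.4, 50.9, 35.9 and 42.0 CPM in WT. Nsdhl, the decarboxylating dehydrogenase of the same complex, was at 17.7, 15.4 and 16.8 CPM in KO and 17.7, 14.8, 17.3 and 27.2 CPM in WT. Both pairs of groups overlapped.

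A pair of enzymes in this stretch had their highest value in KO replicate 2, the lowest KO library for 11 of the 20 synthesis genes and SREBP2 targets. Hsd17b7, the ketoreductase of the demethylation complex, was at 10.9, 14.3 and 4.32 CPM in KO and at 4.59, 4.91, 6.24 and 6.32 CPM in WT. KO replicates 1 and 2 lay above all WT libraries and KO replicate 3 below them (log2 difference 0.84 ± 0.42, SE; edgeR adjusted p = 0.338). Tm7sf2, a sterol reductase, was at 6.47, 14.4 and 4.55 CPM in KO and at 4.46, 2.96, 4.49 and 9.36 CPM in WT (log2 difference 0.67 ± 0.53, SE; edgeR adjusted p = 0.556). Of its exon bases 12.1% overlap Vps51 on the same strand.

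The last enzymes had KO replicate 3 as the highest KO library. Ebp, the sterol isomerase, was at 43.8, 51.1 and 80.9 CPM in KO and at 65.9, 62.2, 67.6 and 95.4 CPM in WT. Sc5d, the desaturase, was at 50.8, 38.2 and 53.8 CPM in KO and at 52.7, 57.7, 49.6 and 80.3 CPM in WT. Dhcr7, the reductase that ends one route to cholesterol, was at 42.7, 38.2 and 72.4 CPM in KO and 58.0, 54.0, 58.5 and 59.3 CPM in WT. The 4 WT libraries of Dhcr7 lay close together and the KO libraries lay on both sides of them. Without KO replicate 3 the log2 difference of Ebp was -0.62 and that of Dhcr7 -0.51, against -0.31 and -0.17 with all libraries, and neither was called.

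No sterol sensor or feedback gene was called. Insig1, the SREBP2-induced retention protein, was at 18.7, 20.7 and 18.04 CPM in KO and at 15.4, 16.2, 18.4 and 14.9 CPM in WT, so unlike most synthesis genes it was lowest in WT replicate 4. Its log2 difference was 0.24 with a 95% interval of -0.19 to 0.67 (edgeR adjusted p = 0.544). Stard4, an SREBP2-induced cytosolic sterol carrier, was at 16.7, 9.99 and 25.9 CPM in KO and at 19.0, 20.3, 22.2 and 31.7 CPM in WT. Srebf2 itself was at 310.1, 226 and 224 CPM in KO and at 196, 171, 233 and 210.0 CPM in WT, with KO replicate 1 the high library (log2 difference 0.32, 95% interval -0.07 to 0.72; edgeR adjusted p = 0.361). Scap, its escort, was at 78.5, 86.2 and 66.0 CPM in KO and 86.1, 73.6, 96.8 and 71.6 CPM in WT. The second retention protein gene, Insig2, which SREBP2 does not induce, was at 30.9, 26.4 and 25.9 CPM in KO and at 31.2, 34.6, 30.6 and 27.9 CPM in WT.

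Genes that move cholesterol out of lysosomes or store it were mixed. Npc1, the membrane transporter of the late endosome, was at 29.2, 17.9 and 18.7 CPM in KO and at 29.7, 26.9, 31.5 and 24.4 CPM in WT. KO replicates 2 and 3 lay below every WT library and KO replicate 1 within them, with a log2 difference of -0.36 ± 0.23 (SE; edgeR adjusted p = 0.449). Without both KO replicate 1 and WT replicate 4 it was -0.66 (edgeR adjusted p = 0.049), the lowest adjusted p of 15 alternatives, which reached up to 0.718. Npc2, the soluble partner that hands cholesterol to NPC1, was at 154, 289.9 and 223 CPM in KO and at 195, 176, 185 and 167 CPM in WT. The order of the KO libraries for Npc2 was the reverse of that for Npc1.

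Soat1 esterifies cholesterol for storage and was at 79.0, 30.4 and 33.5 CPM in KO and at 42.5, 32.1, 42.8 and 42.1 CPM in WT. The high value of KO replicate 1 set the sign of its log2 difference, which was 0.26 with all libraries and -0.32 without that library, and not called either way. Soat2, the second acyltransferase, was chosen after its values were seen. It was at 5.67, 0.396 and 6.19 CPM in KO and at 12.3, 10.9, 12.5 and 18.4 CPM in WT, with every KO library below every WT library (log2 difference -1.73 ± 0.79, SE; edgeR adjusted p = 0.298).

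**Figure D5:**
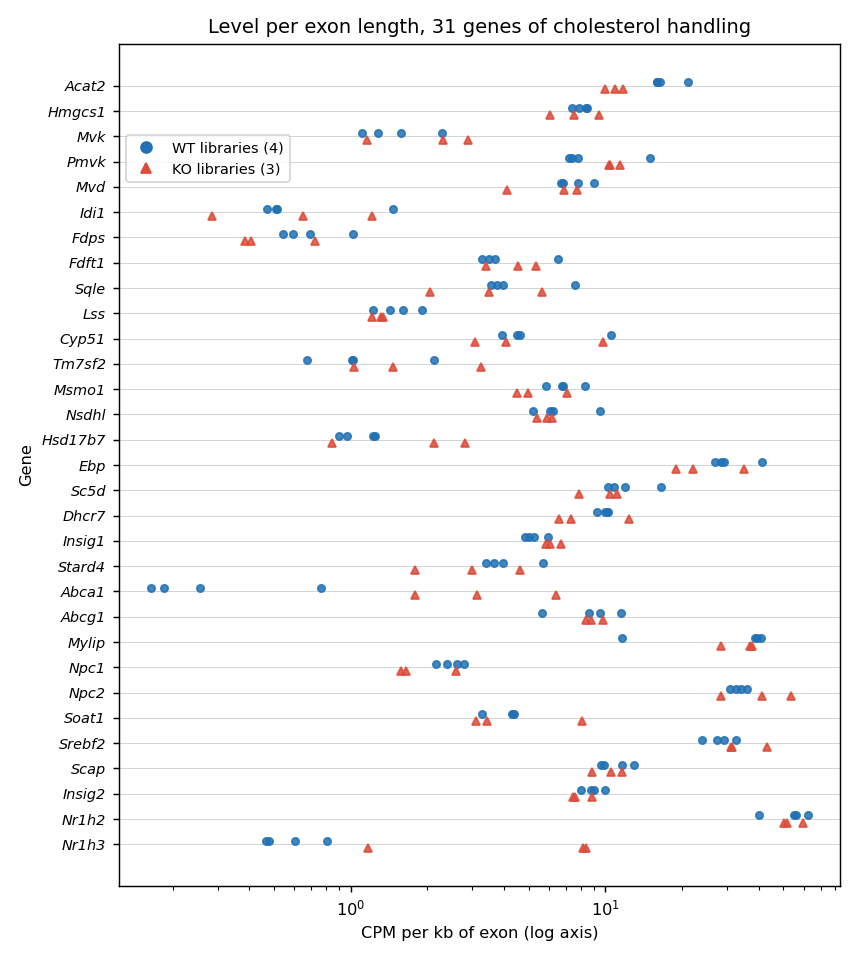
Level of each of the 31 genes per kb of exon (CPM per kb, log axis), with the 4 WT libraries as blue circles and the 3 KO libraries as red triangles. The length counts all annotated exons of a gene together, so the order between genes is approximate. In WT, Nr1h2 is the highest (mean 53.4 CPM per kb) and Abca1 the lowest (mean 0.343), and Abca1 and Nr1h3 are the only genes whose KO libraries all lie to the right of the WT libraries.

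Per kb of exon, the levels in WT fell into a wide order. The length counts all annotated exons of a gene together, so a gene expressed as a shorter transcript reads too low. The order between genes is therefore approximate. After Nr1h2 came Npc2 at 33.2 ± 2.18 CPM per kb, Mylip at 32.7 ± 14.1, Ebp at 31.5 ± 6.61 and Srebf2 at 28.2 ± 3.56 (SD, n = 4). The ranges of mean ± SD of these 4 overlapped. Within each WT library, however, Npc2 lay above Srebf2, at 35.8, 32.4, 34.0 and 30.7 against 27.3, 23.9, 32.4 and 29.2 CPM per kb. Among the synthesis enzymes Ebp was the highest, followed by Acat2 at 17.3 ± 2.46 and Sc5d at 12.4 ± 2.85 CPM per kb. The lowest enzymes were Idi1 at 0.740 ± 0.487, Fdps at 0.713 ± 0.214 and Hsd17b7 at 1.08 ± 0.174 CPM per kb, the counts of the first pair being uncertain as given above. Abca1 was the lowest of all in WT at 0.343 ± 0.285 CPM per kb. In KO it stood at a mean of 3.77 CPM per kb, beside 3.71 for Sqle.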

How the data were processed

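Trim Galore 0.6.0, STAR 2.7.8 with mm10 and DESeq2 made up the upstream processing, per the submitters' processing notes. The counting tool, annotation, strand setting and gene filter were not given in the sources used here. Raw counts and log2 CPM of 16156 genes were deposited by the authors. These deposited log2 values matched edgeR's (TMM, prior count 2) within 4.99e-09 and supplied the symbols.

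CPM here are TMM-scaled counts, and 3 counts equal 0.0414 to 0.0802 CPM. Genotypes were compared across all genes with edgeR 4.0.16 in R 4.3.3 (quasi-likelihood, genotype only, two-sided, Benjamini-Hochberg, threshold 0.05), and filterByExpr removed 0 genes. Standard errors and 95% intervals come from that fit. Alternatives were DESeq2 1.42.0, limma 3.58.1 voom with quality weights, other scalings and filters, a replicate block, and libraries left out. The scripts were tested on simulated data. Lengths, coordinates and overlaps come from GENCODE M21, and 300-base start windows from RefSeq GRCm38.p6, which held 25 of 31 members. Intervals of counts cover counting error only.

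All 31 members are named, with Srebf1, Acly and, from lists of other sterol genes, isoprenoid genes and other LXR targets, the 3 genes with the smallest p at a mean of 1 CPM or more. Members and lists were chosen with earlier results of these data known, so no list test is given.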

Additional observations from a re-analysis of the deposited data

Results flagged for a closer look

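In WT, the extreme library of each member was compared with the other 3 by Dixon's criterion (its gap to the nearest other library over the whole range, at the 95% critical value). Here 10 of 31 members were past it, 9 of them in WT replicate 4 (8 high, 1 low). Chance flags about 1 in 20 groups of independent values, but genes vary together, and WT replicate 4 stood apart in all genes: 14.7% of 16148 genes were past the criterion, 9.61% high and 3.07% low in that library. Whether the members differ from other genes in this was not tested.

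Of the 20 synthesis genes and SREBP2 targets, 7 were past it, all high in WT replicate 4. Pmvk was at 25.7 CPM against 12.3 to 13.3 CPM in the other WT libraries, and Idi1 at 5.15 against 1.64 to 1.79 CPM. Fdft1 was at 27.6 against 13.8 to 15.6 CPM, Sqle at 42.2 against 19.7 to 22.0 CPM, and Cyp51 at 46.4 against 17.3 to 20.4 CPM. Ebp was at 95.4 against 62.2 to 67.6 CPM, and Acat2 at 53.3 against 40.6 to 41.7 CPM.

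Of the LXR targets, Abca1 was high in WT replicate 4, at 7.95 CPM against 1.71 to 2.65 CPM, and Mylip was low there, at 37.6 CPM against 125 to 132 CPM. The remaining case was Soat1, low in WT replicate 2 at 32.1 CPM against 42.1 to 42.8 CPM. WT replicate 4 also had the highest cell cycle sum, 3700.1 CPM against 402 to 429.6 CPM in the other WT libraries, and its part in these levels was not tested.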

How the results depend on the processing

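Of 465 member values over 15 alternatives, 418 kept their sign and stayed uncalled, 9 became called and 38 changed sign, in 12 members. No call could be lost, since the main fit had none. edgeR called 0 members and 0 genes in all with every library. DESeq2 called 3 members (1 synthesis gene, 1 LXR target, 1 of transport and regulation) and 1552 genes, limma voom 2 members (1 LXR target, 1 of transport and regulation) and 1132 genes, and edgeR without both KO replicate 1 and WT replicate 4 called 2 members (Abca1 and Npc1, so 1 LXR target and 1 of transport and regulation) and 1532 genes. That last setting turned the median log2 difference of transport and regulation from 0.13 to -0.09. Leaving out 1 library gave 0 to 1 members (Nr1h3 without KO replicate 2, Abca1 without WT replicate 4), 0 to 1 LXR targets, 0 to 1 of transport and regulation, 0 to 189 genes (159 without KO replicate 1, 120 without KO replicate 2, 189 without KO replicate 3, 129 without WT replicate 4), and a median of -0.02 to 0.19 for transport and regulation. The causes were not tested.

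Signs that turned in limma voom were those of Idi1 (0.28), Cyp51 (0.04), Abcg1 (-0.11), Mylip (-0.20), Soat1 (-0.02) and Nr1h2 (-0.06). Without KO replicate 1 and WT replicate 4 together, Ebp was at 0.04, Abcg1 at -0.18, Mylip at -0.25, Soat1 at -0.27 and Nr1h2 at -0.04. With single libraries left out, log2 differences ran from -0.24 to 0.08 for Hmgcs1, -0.66 to 0.52 for Idi1, -0.10 to 0.34 for Fdft1, -0.72 to 0.37 for Cyp51, -0.51 to 0.00 for Dhcr7, -0.32 to 0.01 for Nsdhl, -0.13 to 0.18 for Abcg1, -0.21 to 0.19 for Mylip, -0.32 to 0.50 for Soat1, -0.18 to 0.01 for Scap, -0.10 to 0.09 for Nr1h2 and -0.03 to 0.13 for Srebf1.

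The labels give no pairing of KO with WT libraries. Same-numbered deviations correlated at -0.108, -0.051 and 0.137, so no pairing was seen. With so few libraries this cannot exclude a shared batch. With the replicate block, 0 members and 0 genes were called (1317 higher and 1317 lower at an unadjusted p under 0.05). Replicate 4 exists only in WT, so in this fit WT replicate 4 has a block of its own and does not enter the genotype difference. Signs turned for Idi1 (0.30), Cyp51 (0.19), Nsdhl (0.01), Abcg1 (-0.13), Mylip (-0.22) and Nr1h2 (-0.11). Leaving out WT replicate 4 without a block also turned Idi1 (0.52), Cyp51 (0.37) and Nsdhl (0.01). The lowest counts among the members were those of Idi1 (39 to 304), Fdps (63 to 252) and, in WT, Nr1h3 (52 to 110) and Abca1 (89 to 469). Mvk came next, with 121 to 362. The part of depth in their spread was not tested.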

Other observations

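Mevalonate also feeds the isoprenoid branch, which makes ubiquinone, dolichol and the lipid anchors of small GTPases. All 14 listed genes were measured, 7 with a log2 difference above 0 and 7 below (median -0.02). edgeR called 0, with 1 higher and 1 lower at an unadjusted p under 0.05, DESeq2 called 0 and limma voom 1 higher. Of all genes, 11.0% were higher and 7.89% lower at the unadjusted threshold, and limma voom called 5.32% higher, so these counts do not set the 14 genes apart.

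The subunits of farnesyltransferase, which attaches the farnesyl anchor, lay on opposite sides. Fnta, the alpha subunit, was at 94.7, 69.7 and 69.8 CPM in KO and at 111, 123, 89.1 and 122 CPM in WT (log2 difference -0.51 ± 0.17, SE; edgeR adjusted p = 0.183). Fntb, the beta subunit, was at 22.8, 37.3 and 31.5 CPM in KO and at 14.8, 11.8, 14.6 and 25.2 CPM in WT (log2 difference 0.88 ± 0.31, SE; edgeR adjusted p = 0.189). KO replicate 1 lay inside the WT range for both genes. Coq2, which joins the isoprenoid tail to ubiquinone's ring, was at 48.9, 46.6 and 39.9 CPM in KO and at 35.9, 33.2, 36.5 and 40.1 CPM in WT.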
